A study of Mus musculus with 7 samples.

Results

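The genes described are 10 mouse genes that buffer the energy supply of muscle: the creatine kinase genes Ckm, Ckb, Ckmt1 and Ckmt2, the creatine transporter gene Slc6a8, the myoglobin gene Mb, the adenylate kinase gene Ak1, the AMP deaminase genes Ampd1 and Ampd3, and the adenylosuccinate synthase gene Adssl1. They were taken by symbol, and 10 of 10 were found among the 26607 genes listed for each library. The libraries came from C2C12 myotubes, the multinucleated fibres that form when cells of this mouse myoblast line fuse. In the EPS (electrical pulse stimulation) group, myotubes were paced at 1 Hz for 24 h, beginning 3 days after differentiation, and were then rested for 1 h. The control group received no EPS. There were 4 EPS libraries, numbered 1 to 4, and 3 control libraries, numbered 1, 3 and 4. C2C12 is 1 cell line kept without nerve or blood supply, and nothing states that libraries of a group came from separate cultures, so a p-value measures the spread between these libraries, which may be technical.

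Creatine kinase moves a phosphate between ATP and creatine. Phosphocreatine made next to mitochondria by the mitochondrial isoenzymes can thus refill ATP at the myofibrils, where the muscle isoenzyme sits partly in the M-band. Myoglobin stores oxygen and eases its passage through the fibre. Adenylate kinase joins a pair of ADP molecules into ATP and AMP, and AMP deaminase then removes AMP by turning it into IMP. Adenylosuccinate synthase and adenylosuccinate lyase return IMP to AMP, which closes the purine nucleotide cycle. In skeletal muscle the muscle-type genes Ckm, Ckmt2, Mb, Ak1, Ampd1 and Adssl1 are known to be turned on as fibres mature, while Ckb and Ampd3 are also used in many other tissues.

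The reads recovered per library ranged from 16616917 to 22120641. Levels are in CPM, the reads of a gene scaled to the library total, and group means are given ± SD over the 3 control and the 4 EPS libraries. Up to 3 reads, or 0.136 to 0.181 CPM, a level was treated as indistinct from 0, a floor that covers counting error only. Control replicate 4 stood apart from the other libraries, with 359 genes at 1 to 5 reads against 2670 to 3181 elsewhere and 14014 genes above 0 against 16144 to 16984. It also held the highest level of the 7 libraries for Ckm, Ckb, Mb, Ak1 and Adssl1, so values without it are given beside those that rest on it. Among the 12256 genes with a mean of at least 1 CPM, it was the highest library for 19.4%. The myotube label was met by its markers: all 12 marker genes were detected, with a summed level of 12140 to 16500 CPM in the control libraries and 9784 to 12860 CPM in the EPS libraries. Of these markers, 9 had a log2 fold change below 0 (8 after quantile normalization), with a median of -0.43, or -0.19 without control replicate 4. Of all genes with a mean of at least 1 CPM, 63.6% were above 0 (50.8% after quantile normalization). None of the 12 was called by limma over all libraries, while edgeR and DESeq2 each called Myog and Gm7325 lower. Over all genes, edgeR called 300 lower and DESeq2 268. By limma, Myog was at -1.07 (limma adjusted p = 0.437), or -0.47 without control replicate 4 (edgeR gave -1.39 with an adjusted p of 0.0625 and DESeq2 -1.40 with 0.0303 over all libraries). Gm7325, the older symbol of the fusion gene Mymx, was at -0.999 (limma adjusted p = 0.368), or -0.83 without control replicate 4. Without EPS replicate 2, limma called it lower, at -1.36 (limma adjusted p = 0.147). The part of this marker shift in the member values was not tested. Des was the most abundant in the control group and Acta1 in the EPS group. Endothelial markers summed to at most 0.904 CPM, blood cell markers (led by Cd68) to at most 2.07 CPM and adipocyte markers (led by Fabp4) to at most 0.140 CPM, with Hba-a1 and Plin1 at 0 in every library.

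Between groups, Ampd3 was the member that changed past the thresholds, and the promoters shown here are its 3, as the gene the result turns on, and those of Ckm and Ckb, whose ratio is compared further on. Each is the RefSeq sequence on GRCm38.p6 running from 250 bases before to 50 bases after a transcript start, and 8 of the 10 genes had such an entry. Capitals mark letters that match CANNTG (the E-box read by myogenic factors such as MyoD), MEF2, CArG (the serum response factor element) or TGACNNNGC (the antioxidant response element core), searched on both strands. A position is that of the first base of a match, with the start site as 0.
Ampd3 promoter 1, plus strand, chr7:110768372-110768671: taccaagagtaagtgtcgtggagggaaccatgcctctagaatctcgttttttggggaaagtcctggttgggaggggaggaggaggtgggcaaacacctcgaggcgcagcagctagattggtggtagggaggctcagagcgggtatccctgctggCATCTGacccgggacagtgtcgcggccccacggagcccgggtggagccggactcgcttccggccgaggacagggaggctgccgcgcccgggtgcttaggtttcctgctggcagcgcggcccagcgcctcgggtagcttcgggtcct
Ampd3 promoter 2, plus strand, chr7:110772354-110772653: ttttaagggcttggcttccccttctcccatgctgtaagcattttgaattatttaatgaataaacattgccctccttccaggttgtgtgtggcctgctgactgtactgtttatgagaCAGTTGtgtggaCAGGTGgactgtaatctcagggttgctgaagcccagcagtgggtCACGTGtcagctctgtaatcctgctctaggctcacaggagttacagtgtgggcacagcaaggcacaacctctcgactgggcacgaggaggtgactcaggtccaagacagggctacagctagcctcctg
Ampd3 promoter 3, plus strand, chr7:110773386-110773685: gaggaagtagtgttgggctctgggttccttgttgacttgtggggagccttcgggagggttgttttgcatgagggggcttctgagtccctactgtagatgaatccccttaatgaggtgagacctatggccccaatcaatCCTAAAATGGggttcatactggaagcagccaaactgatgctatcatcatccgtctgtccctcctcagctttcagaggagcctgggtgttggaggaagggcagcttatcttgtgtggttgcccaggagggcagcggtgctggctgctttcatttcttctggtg
Ckm, plus strand, chr7:19410844-19411143: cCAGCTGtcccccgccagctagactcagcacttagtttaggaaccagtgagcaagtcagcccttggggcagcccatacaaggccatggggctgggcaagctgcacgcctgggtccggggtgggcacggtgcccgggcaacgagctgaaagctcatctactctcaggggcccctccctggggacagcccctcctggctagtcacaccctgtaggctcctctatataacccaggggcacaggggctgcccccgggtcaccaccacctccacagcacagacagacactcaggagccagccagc
Ckb, minus strand, chr12:111672289-111672588: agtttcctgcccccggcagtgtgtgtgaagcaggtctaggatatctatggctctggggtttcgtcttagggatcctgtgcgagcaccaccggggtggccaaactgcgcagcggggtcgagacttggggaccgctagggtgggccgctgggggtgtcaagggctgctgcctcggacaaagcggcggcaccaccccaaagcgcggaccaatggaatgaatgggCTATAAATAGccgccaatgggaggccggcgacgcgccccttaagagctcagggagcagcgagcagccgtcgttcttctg

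Ampd3 promoter 1 held 1 CANNTG match, at -96, and promoter 2 held 3, at -134, -122 and -78. Promoter 3 held none but had a CArG match at -112. The TGACNNNGC core was in none of these 3 windows. Ckm held 1 CANNTG match, the CAGCTG form, at -249, and no MEF2, CArG or TGACNNNGC match. Ckb held no CANNTG match, and its MEF2 match at -29 overlapped a TATAAA box at -28. Of 32851 promoters of this length, 72.3% held CANNTG, 16.3% CAGCTG, 3.19% MEF2, 1.63% CArG, 12.4% TGACNNNGC and 13.6% TATAAA. A match is a description of letters, and the gene-level counts do not say which Ampd3 promoter the reads came from.

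Of the 10 genes, 1 was counted as a differentially expressed gene (DEG), Ampd3. A DEG was a gene that differed by more than 2-fold on the log2(CPM + 1) scale at an unadjusted limma P under 0.01, and 269 of 19144 tested genes met this, or 1.41%, of which 0.966% were higher and 0.439% lower in the EPS group. With limma on log2(CPM + 1) over all tested genes, no member had an adjusted p under 0.05, a level reached by 0.141% of tested genes, while 2 members, Ampd3 and Adssl1, had an unadjusted P under 0.05, as did 11.6% of all tested genes. Ampd3 had an adjusted p under 0.05 by limma when tested among genes with a mean of at least 1 CPM (0.0363) or with a pseudocount of 0.1 (0.0448). By edgeR and by DESeq2 on the recovered reads, 1 member each had an adjusted p under 0.05, again Ampd3, beside 1.51% of all genes by edgeR and 3.39% of the genes that DESeq2 gave an adjusted p. The EPS and control libraries did not overlap for Ampd3 alone among the members, against 10.6% of all tested genes. Over the 8 members with a mean of at least 1 CPM, the median log2 fold change was -0.31 with all libraries and -0.033 without control replicate 4, beside 0.10 and 0.092 for all genes at that level. The CPM scale itself carries a shift: the median log2 fold change of the 12256 genes was 0.101 as deposited, whereas quantile normalization brought it to 0.0052 and median-of-ratios scaling to -0.0048.

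**Figure D1:**
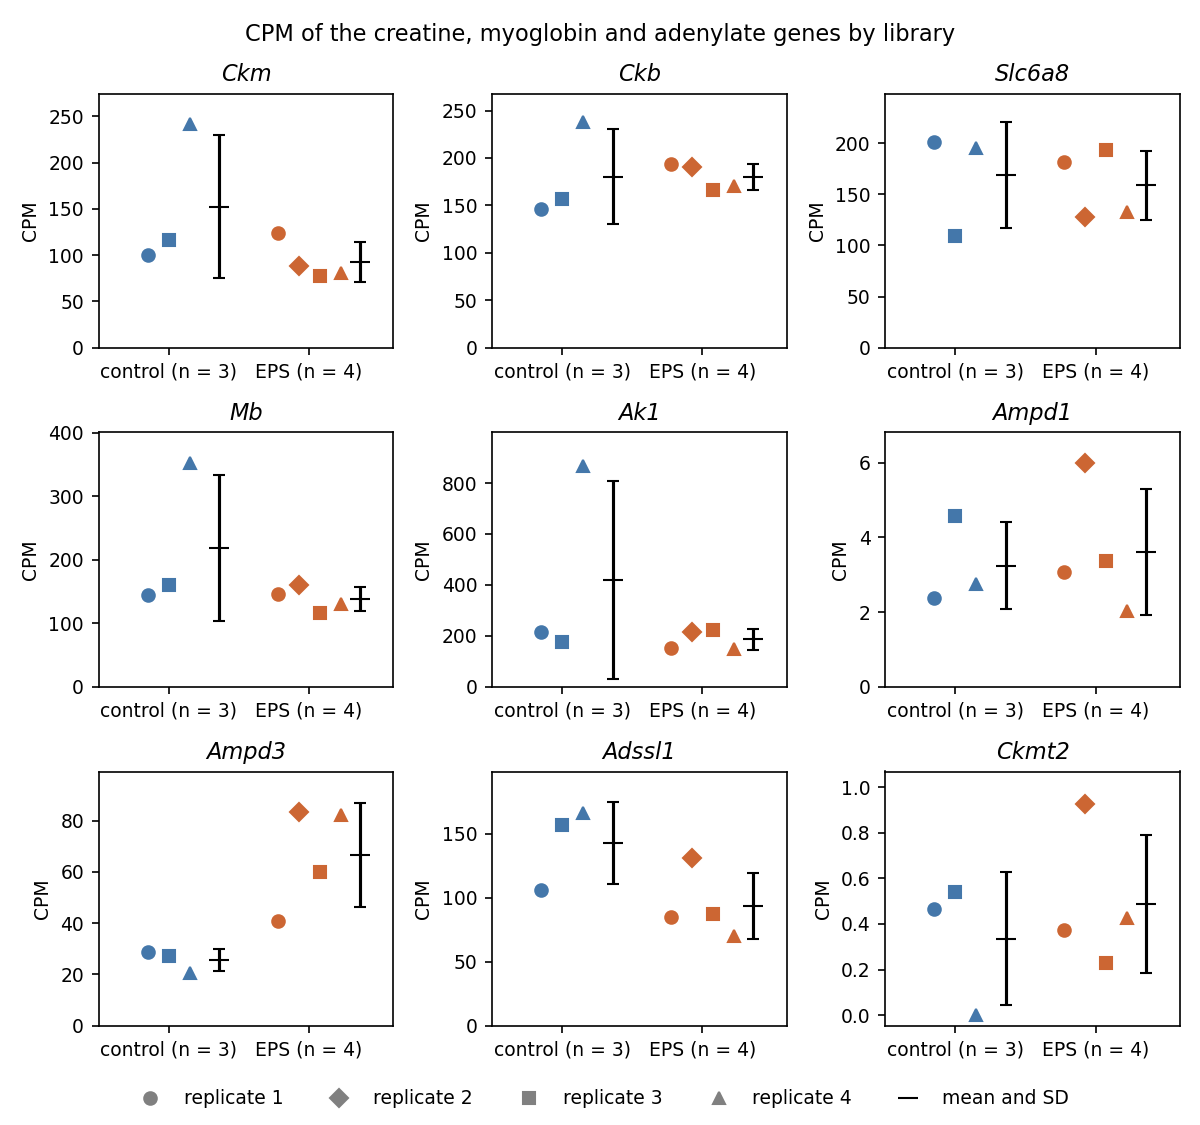
Each panel plots the CPM of 1 gene (vertical axis, from 0) in the 3 control and 4 EPS libraries, with the mean and SD of each group beside the points. Ampd3 is the panel in which the EPS libraries, at 41.0 to 83.2 CPM, sit clear of the control libraries at 20.6 to 28.6 CPM, and control replicate 4 tops the panels of Ckm, Ckb, Mb, Ak1 and Adssl1. Ckmt1, with 1 read in all, is not drawn.

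Creatine enters muscle through the transporter encoded by Slc6a8 (ENSMUSG00000019558.14, plus strand, chrX:73673150-73682502). Its level in the control libraries 1, 3 and 4 was 201, 109 and 195 CPM, beside 182, 127, 193 and 132 CPM in EPS libraries 1 to 4. High and low libraries occurred in both groups, which overlapped. The means were 169 ± 51.6 CPM and 159 ± 33.7 CPM, a log2 fold change of -0.059 with a 95% interval of -0.64 to 0.52 and a limma adjusted p of 0.934. The interval leaves room for a change in either direction, and the sign turned under 5 of 16 alternatives.

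Ckm (ENSMUSG00000030399.2, plus strand, chr7:19404776-19422841) encodes the muscle subunit of cytosolic creatine kinase. The control libraries 1, 3 and 4 measured 100.2, 116 and 241 CPM, and EPS libraries 1 to 4 measured 124, 88.6, 77.4 and 80.4 CPM. The groups overlapped, with EPS replicate 1 above both of the lower control libraries. The mean was 152 ± 77.2 CPM in the control group and 92.6 ± 21.4 CPM in the EPS group. The log2 fold change was -0.63 ± 0.30 (SE), with a 95% interval of -1.32 to 0.064 and a limma adjusted p of 0.473, and the exact two-sided permutation p was 0.114. Without control replicate 4 it was -0.24, with a limma adjusted p of 0.735. On the recovered reads of all 7 libraries, edgeR gave Ckm -0.82 (unadjusted P = 0.00676, adjusted p = 0.171). DESeq2 gave -0.84 (unadjusted P = 0.00923, adjusted p = 0.149), and both changes were under 2-fold. Control replicate 4 alone held 2.23 times the mean of the other controls.

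Ckb (ENSMUSG00000001270.9, minus strand, chr12:111669361-111672338) encodes the brain-type subunit, which pairs with the muscle subunit in young fibres. Its levels were 146, 157 and 238 CPM in the control libraries and 194, 190.0, 166 and 170.2 CPM in the EPS libraries. All EPS libraries lay above control replicates 1 and 3 and below control replicate 4. The group means were nearly equal, at 180.4 ± 50.4 CPM and 180.2 ± 13.9 CPM, and the log2 fold change was 0.029 ± 0.19 (SE) with a 95% interval of -0.41 to 0.47 (limma adjusted p = 0.955). The sign of this value depended on the scaling, since quantile normalization gave -0.010 and median-of-ratios scaling -0.083, and it was 0.25 without control replicate 4.

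The mitochondrial isoenzymes were scarce in these myotubes. Ckmt2 (ENSMUSG00000021622.3, minus strand, chr13:91853387-91876885), the form of striated muscle, had 8, 9 and 0 reads in the control libraries and 8, 19, 5 and 8 reads in the EPS libraries. That is at most 0.542 CPM in the control group and 0.228 to 0.926 CPM in the EPS group, and the library without a read was control replicate 4, which lacked low genes in general. The log2 fold change was 0.16 ± 0.19 (SE, limma adjusted p = 0.791), on a scale where the pseudocount of 1 exceeds the levels themselves. Ckmt1 (ENSMUSG00000000308.14, plus strand, chr2:121357714-121363737), the ubiquitous form, had 1 read in EPS replicate 4 and 0 in the other 6 libraries. Both groups were under the floor of 3 reads, so no fold is given, and the planned ratio of the mitochondrial forms was not formed.

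Mb (ENSMUSG00000018893.15, minus strand, chr15:77015487-77050670), the oxygen store of the fibre, had much the same pattern across libraries as Ckm. It measured 145, 161 and 352 CPM in the control libraries and 146, 159, 116 and 131 CPM in the EPS libraries. Control replicate 4 was far above every other library, while control replicates 1 and 3 lay within or just above the EPS range. Mean levels were 219 ± 115 CPM and 138 ± 18.8 CPM. For Mb, the log2 fold change was -0.55 ± 0.29 (SE), with a 95% interval of -1.22 to 0.12 and a limma adjusted p of 0.515, and it was -0.15 without control replicate 4 (limma adjusted p = 0.792). On the recovered reads of all 7 libraries, edgeR gave -0.78 (unadjusted P = 0.008955, adjusted p = 0.197). DESeq2 gave -0.79 (unadjusted P = 0.0103, adjusted p = 0.159), and both changes were under 2-fold. Exons of Mb share 64 bases with Apol6 on the opposite strand, a gene at 2.34 ± 0.704 CPM in the control group and 1.19 ± 0.278 CPM in the EPS group, both far below Mb.

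Ak1 (ENSMUSG00000026817.14, plus strand, chr2:32621758-32635058) encodes the cytosolic adenylate kinase of muscle. It had the widest control spread of the members with at least 1 CPM: 213, 175 and 866 CPM in control replicates 1, 3 and 4, against 154, 216, 224 and 148 CPM in EPS replicates 1 to 4. Control replicate 4 was 4.46 times the mean of the other controls, which both lay within the range of the EPS libraries. Its log2 fold change was -0.80 ± 0.50 (SE), with a 95% interval of -1.93 to 0.32 and a limma adjusted p of 0.588, and it was -0.085 without control replicate 4. On the recovered reads with all 7 libraries, edgeR gave Ak1 a log2 fold change of -1.29 with an unadjusted P of 0.00285 and an adjusted p of 0.106, which passed the DEG thresholds, whereas DESeq2 gave -1.29 with an unadjusted P of 0.0571.

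Ckm, Ckb, Mb and Ak1 varied together. Over the 7 libraries, Pearson correlations among these 4 genes were 0.708 to 0.942. Adssl1, also highest in control replicate 4, followed them less closely, at 0.337 with Ckb, 0.629 with Ak1, 0.648 with Ckm and 0.727 with Mb. Over the 6 libraries without control replicate 4, correlations among the 4 genes were -0.371 to 0.671. The highest was that of Ckm with Mb (0.942 over all 7), and the next was 0.121, that of Ckb with Mb. Apart from Ckm with Mb, the shared pattern thus rested on that library. Adssl1 there had 0.745 with Mb, 0.395 with Ckm, 0.391 with Ak1 and -0.207 with Ckb. Across all genes with a mean of at least 1 CPM, control replicate 4 was more than 2-fold above the mean of the other controls for 5.68%, and Ckm, Mb and Ak1 were among them.

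**Figure D2:**
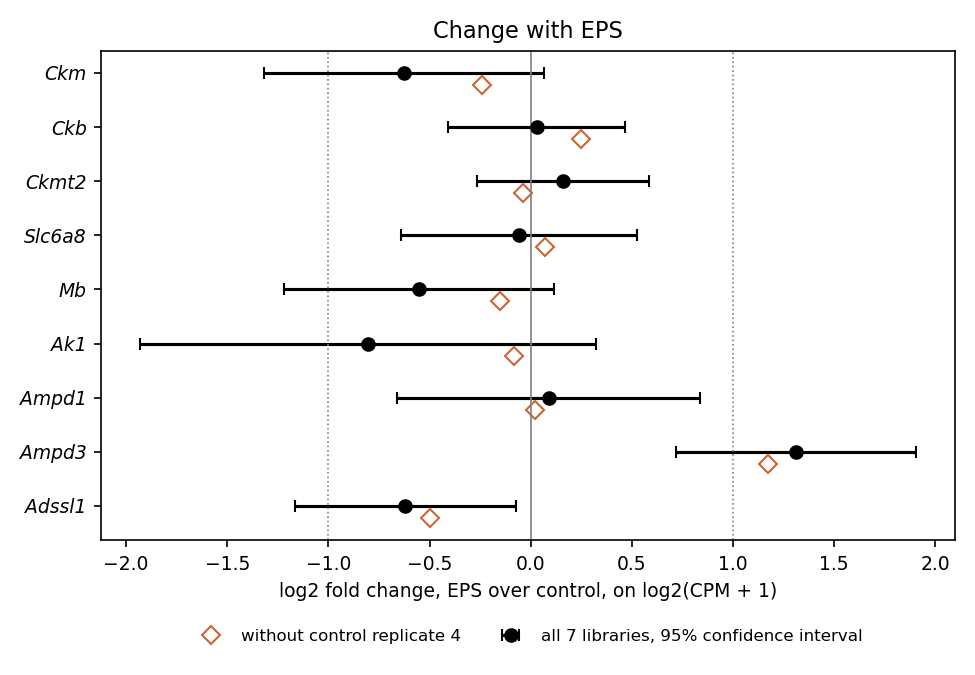
For each gene (vertical axis), the black point is the limma log2 fold change of EPS over control on the log2(CPM + 1) scale with its 95% confidence interval over all 7 libraries, and the open diamond is the value without control replicate 4; dotted lines mark 2-fold. Ampd3, at 1.31, is the only point beyond a dotted line, and the diamonds of Ckm, Mb and Ak1 lie closer to 0 than their points.

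Ampd3 (ENSMUSG00000005686.17, plus strand, chr7:110768206-110812405), the AMP deaminase first known from red blood cells, was higher in every EPS library. Its levels were 28.6, 27.3 and 20.6 CPM in the control libraries, from 453 to 491 reads each, and 41.0, 83.2, 60.1 and 82.4 CPM in EPS replicates 1 to 4, from 881 to 1708 reads. The lowest EPS library thus exceeded the highest control library, and EPS replicate 1 was the nearest to the controls. The mean rose from 25.5 ± 4.29 CPM to 66.7 ± 20.2 CPM, which was 2.48-fold on the log2(CPM + 1) scale. The log2 fold change was 1.31 ± 0.26 (SE), with a 95% interval of 0.72 to 1.90, a limma P of 0.000778 and a limma adjusted p of 0.0979. The exact two-sided permutation p was 0.0571, where 0.0286 is the smallest that 3 libraries against 4 allow. Ampd3 passed the DEG thresholds under 16 of 16 alternatives, with a log2 fold change of 1.06 to 1.52, and the adjusted p was 0.000474 to 0.238 and under 0.05 in 4 of them. Its exons share 195 bases with Rnf141 on the opposite strand, and Rnf141 measured 9.09 ± 0.471 CPM in the control group and 12.2 ± 1.41 CPM in the EPS group (log2 fold change 0.38). How strand was used in counting is not given in the sources used here, and the part of Rnf141 reads in the Ampd3 values was not tested.

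Ampd1 (ENSMUSG00000070385.12, plus strand, chr3:103074014-103099720), the form of adult skeletal muscle, was present at a low level. Its values were 2.39, 4.57 and 2.76 CPM in the control libraries and 3.07, 5.99, 3.38 and 2.02 CPM in the EPS libraries, from 38 to 123 reads. The groups overlapped throughout, and the highest and the lowest value were both from EPS libraries. Its log2 fold change was 0.089 ± 0.33 (SE) with a 95% interval of -0.66 to 0.84 (limma adjusted p = 0.925).

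Adssl1 (ENSMUSG00000011148.14, plus strand, chr12:112620045-112641360), the muscle adenylosuccinate synthase of the purine nucleotide cycle, had lower values in most EPS libraries. It measured 106, 157 and 166 CPM in the control libraries and 84.6, 131, 87.6 and 70.4 CPM in the EPS libraries. EPS replicate 2 lay above control replicate 1, and the other 3 EPS libraries lay below all controls. The means were 143 ± 32.3 CPM and 93.3 ± 26.0 CPM. Its log2 fold change of -0.62 ± 0.24 (SE) had a 95% interval of -1.16 to -0.074 and a limma P of 0.0303, but the limma adjusted p was 0.364 and the exact two-sided permutation p was 0.0857. It was -0.50 without control replicate 4, and it was negative under all 16 alternatives. In bulk RNA, a lower share of cells that make a transcript and less transcript per cell cannot be told apart, here or for the other genes.

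Isoform balance was compared as a log2 ratio of (CPM + 1) within each library. The Ampd1 to Ampd3 ratio was -3.13, -2.34 and -2.52 in the control libraries and -3.37, -3.59, -3.80 and -4.79 in EPS replicates 1 to 4. The groups did not overlap, and the mean was -2.67 ± 0.41 against -3.89 ± 0.63, a difference of -1.22. The exact two-sided permutation p was 0.0286, the smallest this design allows, and 0.0571 after Benjamini-Hochberg adjustment over the 2 ratios formed. The ratio restates the Ampd3 change, since Ampd1 itself did not pass the test. With EPS replicate 4 left out, the difference was -0.92.

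Per kilobase of transcript, Ampd3 made up more of the summed AMP deaminase transcripts in the EPS libraries. Ampd2, the isoform of non-muscle tissues, measured 34.0 ± 2.5 CPM and 34.3 ± 3.77 CPM, a log2 fold change of 0.0079 with a 95% interval of -0.34 to 0.35. The share of Ampd3 in the summed CPM per kilobase of Ampd1, Ampd2 and Ampd3 was 38.6%, 38.1% and 33.1% in the control libraries and 50.1%, 64.5%, 57.3% and 63.3% in EPS replicates 1 to 4. Ampd2 held the largest share in all 3 control libraries, and Ampd3 held it in all 4 EPS libraries. The summed level was 15.2 to 18.1 CPM per kilobase in the control group and 20.0 to 31.8 CPM per kilobase in the EPS group. Reads per coding length gave 37.5% to 43.2% and 55.0% to 69.6% for the Ampd3 share.

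The Ckm to Ckb ratio of the control libraries was -0.54, -0.435 and 0.017, and that of the EPS libraries was -0.64, -1.09, -1.09 and -1.07. Every EPS library lay below every control library, although EPS replicate 1 was close to control replicate 1. The mean was -0.32 ± 0.30 against -0.98 ± 0.22, a difference of -0.66 with an exact two-sided permutation p of 0.0571, also 0.0571 after adjustment over the 2 ratios. Without control replicate 4 the difference was -0.49, with an exact p of 0.0667, the smallest that 2 libraries against 4 can give. Per kilobase of transcript, Ckm made up 27.0%, 28.4% and 35.2% of the Ckm and Ckb sum in the control libraries and 25.5%, 20.0%, 20.0% and 20.2% in the EPS libraries. These shares depend on the lengths used, 2742 bases for Ckm and 1472 for Ckb. The coding length is 1143 bases for both, so by coding length the Ckm share was higher in every library, and Ckm was level with Ckb in control replicate 4.

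**Figure D3:**
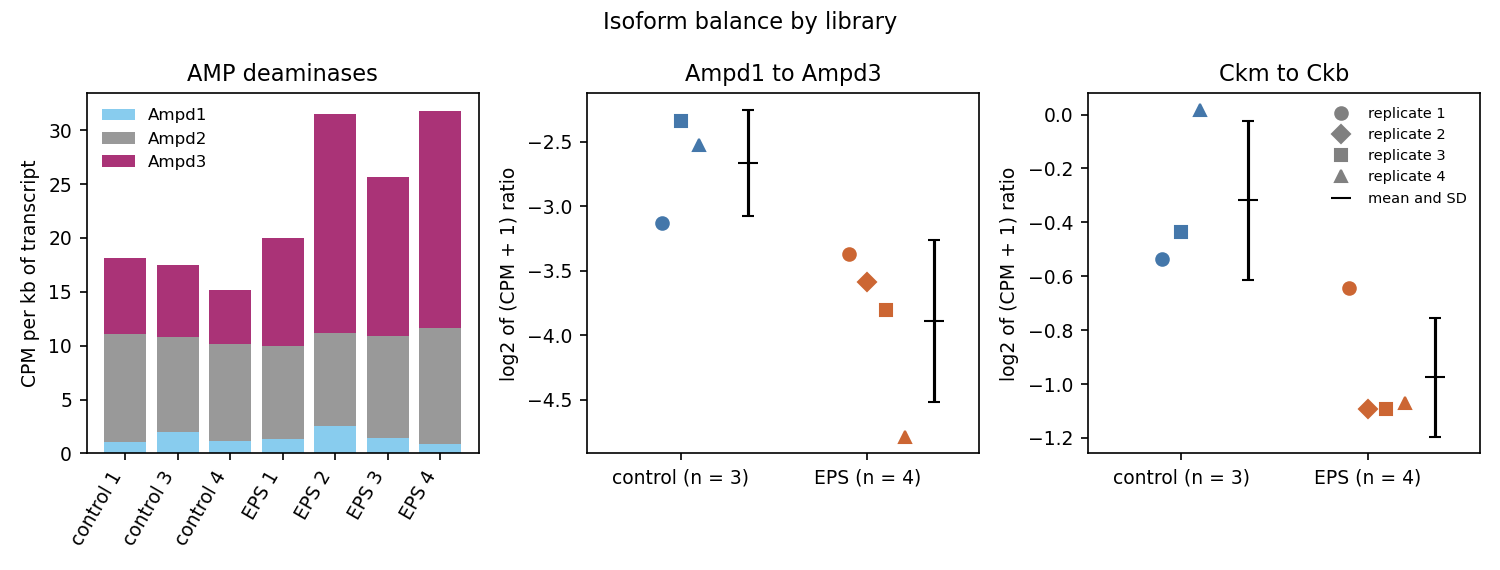
Left, bars give the CPM per kilobase of Ampd1, Ampd2 and Ampd3 stacked for each library. Middle and right, points give the log2 ratio of (CPM + 1) of Ampd1 to Ampd3 and of Ckm to Ckb in each library with the group mean and SD. The Ampd3 segment is the one that is larger in the EPS bars, and in both ratio panels the 4 EPS points lie below the 3 control points.

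Compared per kilobase, with the length of the main protein-coding transcript and the median over the 7 libraries, the levels were in the order Mb 132.7, Ckb 115.6, Ak1 102.4, Adssl1 59.6, Slc6a8 54.8, Ckm 36.6, Ampd3 10.02, Ampd1 1.31, Ckmt2 0.286 and Ckmt1 0 CPM per kilobase. Neighbours within the first 3 overlapped in their library ranges, as did Ak1 and Adssl1, and Adssl1, Slc6a8 and Ckm. From Ckm downward, neighbours did not overlap, apart from Ckmt2 and Ckmt1, which both had libraries at 0. The order of those 6 changed when the coding length or the union of all exons was used, and that of the last 4 did not. Ampd3 ranged from 5.04 to 6.99 CPM per kilobase in the control group and from 10.02 to 20.3 in the EPS group, still below every library of Ckm, at 28.2 to 87.9. Ckm was below Ckb per kilobase of transcript in every library, but by coding length, which is 1143 bases for both genes, it was level with Ckb in control replicate 4.

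The wider pathway was read from 7 lists with 44 genes, of which 43 were found and tested and 35 had a mean of at least 1 CPM. Of the 43, Ak4 was called higher and Ak5 lower, beside 1.41% of all tested genes called, and 5 genes had all EPS libraries above and 2 all below the controls, beside 10.6% without overlap among all tested genes. No listed gene had an adjusted p under 0.05 by limma, against 10 with an unadjusted P under 0.05 (11.6% of all tested genes), while edgeR gave 3 (Ak5, Xdh and Prkag3) and DESeq2 gave 5 (those 3 with Ak4 and Nt5e), tools by which 1.51% and 3.39% of all genes with an adjusted p passed. The median log2 fold change of the 35 genes was 0.16, beside 0.101 for all genes at that level. Of the 35, 24 were above 0, beside 63.6% of all genes at that level, and 19 after quantile normalization, beside 50.8%. Without control replicate 4, no listed gene was called on the deposited scale. The log2 fold changes there were 1.06 for Ak4 and -0.96 for Ak5, beside 1.14 and -1.02 over all libraries.

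Adenylate kinases other than Ak1 split. Ak4, a mitochondrial matrix form, averaged 14.0 ± 4.75 CPM in the control group and rose to 32.9 ± 11.4 CPM with EPS, by 1.14 ± 0.34 (SE) on the log2 scale, with a limma P of 0.00873 and an adjusted p of 0.231. Its groups overlapped, since EPS replicate 4 at 16.8 CPM lay below control replicate 3 at 19.4 CPM. Of 7 fits that each left out 1 library Ak4 was called in 2, those without control replicate 3 and without EPS replicate 4, with log2 fold changes of 0.98 to 1.42 over the 7. It was not called after quantile normalization (1.004, limma P of 0.0181) or median-of-ratios scaling (1.03, limma P of 0.0134). Ak5 averaged 3.72 ± 0.437 CPM in the control group and fell to 1.34 ± 0.411 CPM with EPS, for a log2 fold change of -1.02 ± 0.21 (SE) with a limma P of 0.000878 and an adjusted p of 0.101, and it was called in 4 of those 7 fits, while without control replicate 4, EPS replicate 2 or EPS replicate 4 its log2 fold change, at -0.97 to -0.96, was just under 2-fold. All EPS libraries, at 1.01 to 1.91 CPM, were below the controls at 3.25 to 4.11 CPM. The most abundant of this list, Ak3, which uses GTP in the matrix, was at 119 ± 18.5 CPM and 120.1 ± 12.8 CPM. Of the 7 genes of the list found, 1 was called in each direction, and Ak9 was matched under its older symbol Akd1.

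Among 13 genes of the purine nucleotide cycle and AMP breakdown, none was called by limma on log2(CPM + 1) over all libraries and tested genes. Nt5e and Xdh, just short of the P threshold there, were both called by edgeR, by DESeq2, among genes with a mean of at least 1 CPM and with pseudocounts of 0.1 and 0.5, Nt5e also without control replicate 3, and Xdh without control replicate 1 or EPS replicate 1. Of the 12 with at least 1 CPM, 11 had a log2 fold change above 0, beside 63.6% of all genes at that level, and after quantile normalization 9 did, beside 50.8%. In 3 genes all EPS libraries lay above the controls. Nt5e, the ecto-enzyme CD73 that makes adenosine from extracellular AMP, measured 5.29 to 10.5 CPM in the control libraries and 11.9 to 26.1 CPM in the EPS libraries, with a log2 fold change of 1.08 ± 0.33 (SE), a limma P of 0.0106 and an adjusted p of 0.242. Xdh, which oxidizes hypoxanthine and xanthine to uric acid, measured 6.20 to 17.7 CPM and 17.9 to 67.8 CPM, with a log2 fold change of 1.54 ± 0.48 (SE), a limma P of 0.0108 and an adjusted p of 0.243. Control replicate 1 and EPS replicate 1 were almost level for Xdh. Adsl, the lyase of the cycle, had 56.4 ± 11.0 CPM and 71.7 ± 6.56 CPM, a log2 fold change of 0.36 with a limma adjusted p of 0.461, or 0.20 without control replicate 4. The most abundant gene of the list was Adss, the non-muscle counterpart of Adssl1, at 78.1 ± 16.6 CPM and 88.5 ± 21.7 CPM, a log2 fold change of 0.17. With 1 library left out, the Adss value ranged from -0.010 (without control replicate 1) to 0.30 (without EPS replicate 3).

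AMP-activated protein kinase (AMPK) senses the AMP that adenylate kinase makes. None of its 8 listed genes was called on the deposited scale, and 4 had a log2 fold change above 0 (3 after quantile normalization). Of all genes with a mean of at least 1 CPM, 63.6% were above 0 (50.8% after quantile normalization). Prkag3, a regulatory subunit found mostly in skeletal muscle, measured 114, 106 and 122 CPM in the control libraries and 69.0, 67.4, 68.9 and 42.2 CPM in the EPS libraries. The groups were well apart, with a log2 fold change of -0.89 ± 0.20 (SE), a limma P of 0.00143 and an adjusted p of 0.120. The change was under 2-fold on the deposited scale, while median-of-ratios scaling gave -1.01 with a limma P of 0.000846, which passed the DEG thresholds. Prkaa1, a catalytic subunit, measured 117 ± 15.8 CPM and 152 ± 13.01 CPM, with all EPS libraries above the controls, a log2 fold change of 0.38 and a limma adjusted p of 0.368.

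Of the carriers that exchange ADP and ATP across the inner mitochondrial membrane and the nucleoside diphosphate kinases, 6 genes had at least 1 CPM, all 6 had a log2 fold change above 0 and none was called. All 6 were also above 0 after quantile normalization, beside 50.8% of all genes at that level there and 63.6% as deposited. Nme3 measured 6.06 ± 0.592 CPM and 10.6 ± 2.35 CPM with no overlap between groups, a log2 fold change of 0.70 and a limma adjusted p of 0.300. Nme2 was the most abundant at 433 ± 160.4 CPM and 498 ± 99.6 CPM, and its reads may be shared with its close paralog Nme1. For creatine synthesis, Gatm, whose product makes the precursor guanidinoacetate, was the most abundant at 121 ± 40.0 CPM and 94.8 ± 28.0 CPM, and none of 3 genes was called. Of the globins other than Mb, Cygb was the more abundant at 0.712 ± 0.547 CPM and 0.346 ± 0.156 CPM, and neither gene was called. The M-band myomesins, 3 genes of the structure that holds muscle creatine kinase, all had a log2 fold change below 0, from -0.54 to -0.33, and none was called. Of all genes with a mean of at least 1 CPM, 63.6% were above 0. Myom2 was the most abundant of them, at 549 ± 236 CPM and 460 ± 271 CPM. Its log2 fold change, -0.33 over all libraries, ranged from -0.68 (without EPS replicate 3) to -0.0055 (without control replicate 1) when 1 library was left out.

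**Figure D4:**
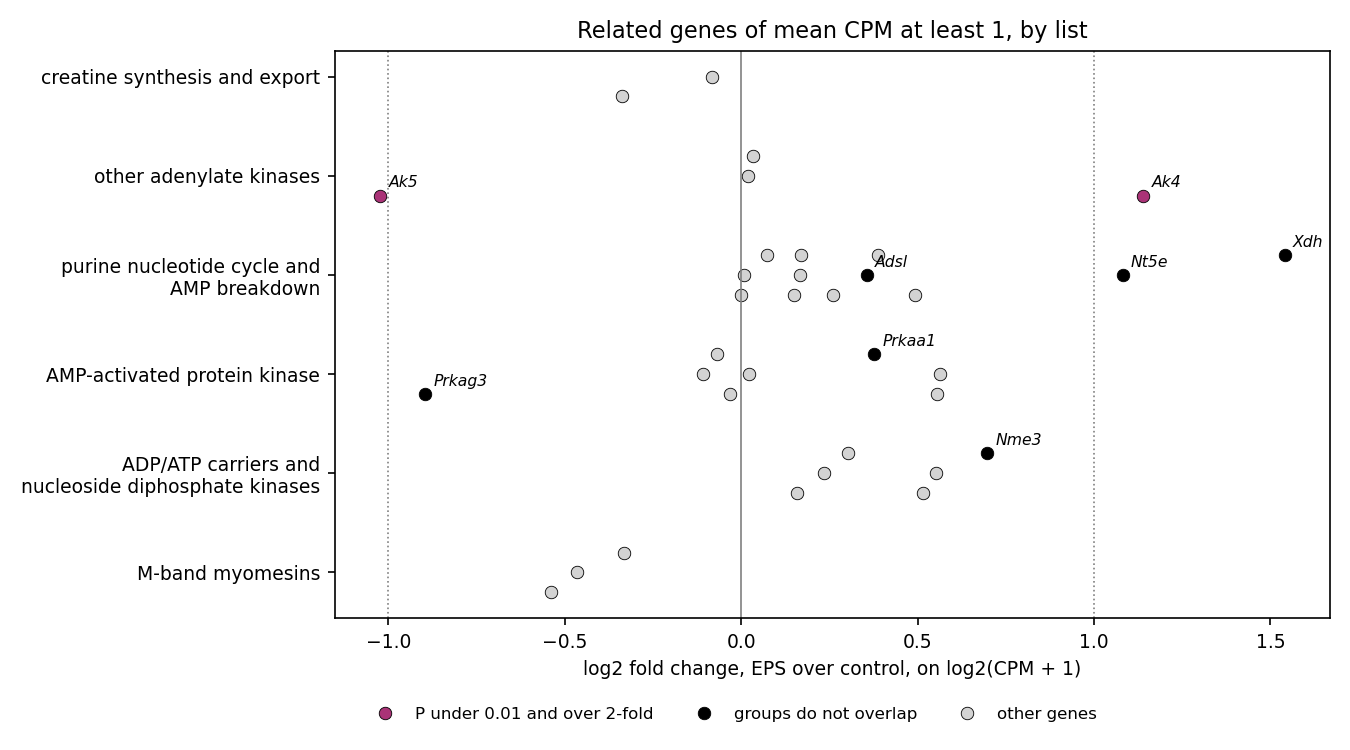
Each point is a listed gene with a mean of at least 1 CPM, placed by its limma log2 fold change of EPS over control on the log2(CPM + 1) scale (horizontal axis) within its list (vertical axis); dotted lines mark 2-fold. Purple points, Ak4 and Ak5, passed the DEG thresholds, black points are other genes whose groups do not overlap, and most points lie within 0.6 of 0.

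Marker genes of other cell states were read beside the members. Of 8 cycling cell markers, all had a log2 fold change above 0 (7 did after quantile normalization), and Birc5, a mitotic survival factor, was called. Of all genes with a mean of at least 1 CPM, 63.6% were above 0 (50.8% after quantile normalization), and 1.41% of all tested genes were called. By edgeR, by DESeq2, and by limma among genes with a mean of at least 1 CPM or with a pseudocount of 0.1, Mki67, Ccnb1 and Birc5 were called. Over all genes, those fits called 629, 585, 310 and 601 in that order, from 19144 genes, or from 12256 with the mean of at least 1 CPM. The adjusted p was 0.0458 by edgeR and 0.0191 by DESeq2 for Mki67, and 0.0393 and 0.0168 for Birc5. By limma, none of the 8 was called after quantile normalization or without control replicate 4. In those fits Birc5 had a log2 fold change of 1.065 and 1.19, beside 1.19 over all libraries as deposited. Mki67 had 1.21 and 1.15, beside 1.27. Birc5 averaged 13.3 ± 0.833 CPM without EPS and rose to 35.1 ± 19.8 CPM with it, with a log2 fold change of 1.19, a limma P of 0.00911 and an adjusted p of 0.234. Of 7 fits that each left out 1 library it was called in 2, those without EPS replicate 2 and without EPS replicate 3. Its log2 fold change over the 7 was 0.87 to 1.43. The summed cycling markers were 378 to 470.3 CPM in the control libraries and 925, 516, 588 and 1334 CPM in EPS replicates 1 to 4. Among the EPS libraries, the highest Ampd3 levels were in replicate 2, with the lowest of these sums, and in replicate 4, with the highest. The 4 undifferentiated myoblast markers summed to 55.0 to 91.5 CPM and 36.6 to 60.2 CPM, and none was called by limma on log2(CPM + 1) over all libraries and tested genes. Id1, an inhibitor of myogenic factors, had all EPS libraries below the controls with a log2 fold change of -1.09 (limma adjusted p = 0.282), or -0.65 without control replicate 4. Over all libraries, edgeR and DESeq2 each called Id1 and Id3 lower, with an adjusted p for Id1 of 0.0209 and 0.00677. Those tools called 300 and 268 genes lower in all. Limma also called Id1 after quantile normalization, after median-of-ratios scaling, among genes with a mean of at least 1 CPM and with a pseudocount of 0.1. Without EPS replicate 2, limma called Id3. The most abundant cycling marker was Mki67, at 108 ± 20.8 CPM and 293 ± 154 CPM. The most abundant myoblast marker was Id1 in the control group, at 27.0 ± 16.1 CPM, and Pax7 in the EPS group, at 18.1 ± 2.94 CPM. The part of these cell states in the member values was not tested.

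The genes most like Ckm, Mb and Ampd3 were taken by Pearson correlation of log2(CPM + 1) over the 7 libraries among 9256 genes with a mean of at least 10 CPM, as a description. For Ckm they were Sdc1, Cbr2, Nt5dc2, Eno3 and Rcn3, with correlations of 0.967 to 0.985. For Mb they included Junb, Copz2, Alg12 and Nab2, with correlations of 0.979 to 0.988. For Ampd3 they were Hmox1 (heme oxygenase 1), Fth1 (ferritin heavy chain), Adh7, Cpne2 and Sorbs3, with correlations of 0.975 to 0.983. Hmox1 averaged 41.2 CPM in the control group and 299 CPM in the EPS group, and Fth1 averaged 989 and 3283 CPM. All genes of a library share its depth and its group, so such correlations hold the group difference and, for Ckm and Mb, the level of control replicate 4.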

How the data were processed

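The authors selected poly(A) RNA of C2C12 myotubes, made directional libraries, sequenced paired reads of 100 bp, mapped them to GRCm38 with STAR 2.5.4b (submitters' processing notes) and deposited CPM for 26607 genes per library, not log-transformed. The read counter, its annotation, its use of strand and its handling of shared reads are not given in the sources used here. Reads of near-identical or overlapping genes are therefore uncertain. Overlapping genes that were not listed, so that their levels are unknown, share up to 451 exon bases with Ckm, 412 with Mb and 196 with Ampd3.

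Groups came from the sample labels. All CPM were whole multiples of 1 read (tolerance 0.05 reads), which gave back the reads. The unit being CPM, log2(CPM + 1) of the 19144 genes above 0 in at least 1 library was tested, two-sided, with limma 3.58.1 in R 4.3.3 with a mean-variance trend. Adjusted p-values are Benjamini-Hochberg over all tested genes. Ratios, and single genes in addition, were tested by an exact permutation test over 35 assignments of libraries. Alternatives were edgeR 4.0.16 (quasi-likelihood) and DESeq2 1.42.0 on recovered reads, pseudocounts of 0.1 and 0.5, a mean of at least 1 CPM, quantile normalization (named in the study's methods), median-of-ratios scaling, a P threshold of 0.001 (also named there), a replicate block and leaving out each library. Chosen after seeing the data were median-of-ratios scaling without control replicate 4 and the lengths by exon union and by coding sequence. The tests were tried on simulated reads, whose outcome is not given here.

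The members and lists were chosen with earlier results of these data known. Named were all members, and of the lists each gene called, each with groups that do not overlap and at least 1 CPM, the most abundant of each list, and the 5 genes most correlated with Ckm, Mb and Ampd3, of which 1 is not reported here. Other genes named were chosen after their values were seen. Coordinates are those of GENCODE on GRCm38 and promoters those of RefSeq on GRCm38.p6. One listed gene, Ak6, was not found by symbol.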

Additional observations from a re-analysis of the deposited data

Results flagged for a closer look

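In 3 of the results described above, 1 EPS library lay far from the other 3 by Dixon's test, which chance alone gives in about 1 of 20 groups. The number of groups tested is not given here, so the 3 cannot be set against that rate. The Ckm to Ckb log2 ratio was -0.64 in EPS replicate 1, while the other EPS libraries were within -1.09 to -1.07. Nt5e was 26.1 CPM in EPS replicate 2, against 11.9 to 13.9 CPM in the others. Prkag3 was 42.2 CPM in EPS replicate 4, against 67.4 to 69.0 CPM in the others. Groups of 3, such as the controls, were not tested, so the control replicate 4 values of Ckm, Mb and Ak1 could not be picked out in this way.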

How the results depend on the processing

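The Ampd3 call held under all 16 alternatives, and Ckm, Mb, Ak1 and Adssl1 kept a negative sign in all of theirs, with Ak1 called by edgeR alone. For values near 0 the sign turned. Ckb was -0.12 by DESeq2, -0.11 by edgeR, -0.083 with median-of-ratios scaling and -0.010 with quantile normalization, and it was -0.0074 without EPS replicate 1, -0.11 without control replicate 1 and -0.052 without control replicate 3, so that leaving out 1 library gave -0.11 to 0.25. Leaving out 1 library gave -0.34 to 0.094 for Slc6a8, -0.13 to 0.30 for Ampd1 and -0.036 to 0.28 for Ckmt2. Slc6a8 was 0.019 without EPS replicate 4, 0.038 without EPS replicate 2, 0.073 without control replicate 4 and 0.094 without control replicate 1. Ampd1 was -0.13 without EPS replicate 2 and -0.055 without control replicate 1. Ckmt2 was -0.036 without control replicate 4. Median-of-ratios scaling without that library, chosen after seeing the data, gave -0.079 for Ckmt2 and -0.068 for Ampd1.

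The number of DEGs was 585 by DESeq2, 629 by edgeR, 601 with a pseudocount of 0.1 and 106 at P under 0.001, and 209 to 325 when 1 library was left out. The share of higher calls, 68.8%, was 54.2% by DESeq2, 52.3% by edgeR, 51.6% with quantile normalization, 52.8% with median-of-ratios scaling and 52.1% with that scaling without control replicate 4. Members called numbered 2 by edgeR and 1 otherwise. Pathway genes called numbered 4 by DESeq2, by edgeR, at a mean of at least 1 CPM and with pseudocounts of 0.1 and 0.5, 1 with quantile normalization and at P under 0.001, 0 with the replicate block and 0 to 3 when 1 library was left out, with 0 both without control replicate 4 and without EPS replicate 2. The Ampd1 to Ampd3 difference was -1.45 to -0.92 and that of Ckm to Ckb -0.77 to -0.49 when 1 library was left out, with exact p of 0.0667 to 0.133 in designs that cannot go below 0.0667 or, with an EPS library left out, 0.1. The cause of these shifts was not tested. Fits that leave 2 controls rest on their spread being like that of the other group.

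Libraries with the same replicate number did not deviate together (correlations of 0.245, -0.447 and 0.0679 for numbers 1, 3 and 4), so the replicate block is given here only. With the block, which drops EPS replicate 2, Ampd3 had a log2 fold change of 1.19 (limma adjusted p = 0.238), 276 genes were called, Slc6a8 was 0.038, Ampd1 -0.13 and the Ampd1 to Ampd3 difference -1.32 (exact p = 0.25, the smallest for 3 pairs). Of the marker genes, limma with the block called Gm7325, Mki67, Top2a, Birc5, Id1 and Id3. Depth limits Ckmt1 and Ckmt2 most, with at most 19 reads in a library.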
